A study of Mus musculus with 58 samples.

Results

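Fev and 5 genes of serotonin synthesis and storage, Tph1, Tph2, Ddc, Slc18a1 and Slc18a2, were followed through single cells of the embryonic mouse pancreas. They were chosen by name as a pathway, 6 of the 19699 genes in the deposited table, and all 6 were found. A well counted as a cell when it held at least 2000 transcripts and 500 genes, spike-ins aside, which left 4318 cells.

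Serotonin is made from tryptophan in a pair of steps. Tryptophan hydroxylase, encoded by Tph1 outside the brain and by Tph2 in the serotonin neurons of the brain stem, takes the first and rate-limiting step, and the decarboxylase encoded by Ddc takes the second. The vesicular monoamine transporters VMAT1 (Slc18a1) and VMAT2 (Slc18a2) load monoamines into secretory vesicles. Fev (also called Pet1), an ETS-family transcription factor, maintains the serotonin programme in neurons and is also known from pancreatic endocrine precursors. In adult mouse beta cells Tph1 is known to be induced in pregnancy through the prolactin receptor.

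The cells came from embryos of mice carrying mip-gfp, a transgene in which the mouse insulin promoter (MIP) drives GFP, and were sorted one to a well for SORT-seq, which counts transcripts with molecular identifiers. MIP-GFP cells were sorted by GFP intensity, and live cells by exclusion of a viability dye. Both sorts were taken at E12.5 (experiments EP11 and EP18), E13.5 (EP12), E14.5 (EP14), E15.5 (EP10 and EP17) and E18.5 (EP16). All groups carried the transgene, and the labels name no mutation, drug or other treatment. Each of E13.5, E14.5 and E18.5 rests on 1 experiment, so at those stages the stage and the experiment cannot be told apart.

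Of 58 labelled libraries, 54 matched wells on 15 plates of the table, with 129 to 362 cells and 1216569 to 9432013 transcripts per plate. The median per cell ranged between plates from 6918 to 27217 transcripts. The titles of the MIP-GFP libraries of EP11 and EP18 give E15.5 and those of EP16 give E14.5, against E12.5 and E18.5 in the stage label used here. The EP11 and EP18 MIP-GFP plates held 0 insulin-gated cells, while the MIP-GFP plates of EP10 and EP17, labelled E15.5 in both fields, held 39.1% and 64.7%. A further EP16 plate, labelled live and coded P6, held 291 insulin-gated cells among 301, and all 301 were endocrine. Every other library coded P6 was labelled MIP-GFP. This plate was kept as live, and tests of members that passed the filter on low counts were also run without it. Levels are given as CPM, the transcripts of a gene scaled to a fixed total of all transcripts in summed cells. A transcript is counted once whatever its length, so levels can be compared between genes.

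Cells were gated by hormone share. A cell entered a hormone gate when 1 hormone took at least 1% of its transcripts and exceeded every other hormone by at least 3 times; Ins1 and Ins2 were added together as insulin, and Gcg, Sst, Ppy and Ghrl stood alone. Outside these gates, Neurog3-gated cells held at least 2 Neurog3 and 0 Fev transcripts, Fev-gated cells at least 2 Fev and 0 Neurog3, a mixed gate held both, and granin-gated cells held at least 2 transcripts of Chga plus Chgb. These make up 2777 endocrine cells. The other 1541 cells were gated by marker lists or left unclassed. The granin gate was mixed: its cells also carried summed CPM of 6515 for 7 acinar markers and 4123 for 6 mesenchyme markers. Fev helped to define the Neurog3, Fev and mixed gates, and a cell without a hormone gate that held 2 or more Fev transcripts went to the Fev or mixed gate before any other. No cell of the granin, marker-list or unclassed gates could therefore hold more than 1. The level of Fev outside the hormone gates is a description fixed by this order, whereas none of the other 5 genes entered a gate.

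The 6 genes lie on different chromosomes (GRCm38). Fev spans chromosome 1, 74881509 to 74885419 on the minus strand. Tph1 spans chromosome 7, 46644641 to 46672537 (minus). Tph2 spans chromosome 10, 115078641 to 115185022 (minus). Ddc spans chromosome 11, 11814101 to 11898144 (minus). Slc18a1 spans chromosome 8, 69037711 to 69089235 (minus). Slc18a2 spans chromosome 19, 59260896 to 59296012 (plus).

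RefSeq upstream sequence was held for 5 of the 6 genes, in 7 entries, and Slc18a1 had no entry. The 250 bases before the start are shown for Fev, the factor of the group, and for both tryptophan hydroxylase genes, because the results below turn on when and where these are detected. They are from GRCm38.p6, all on the minus strand and written 5′ to 3′. Capitals mark the letters AGATAA, a form of GATA factor sites, and TATAAA, the TATA box.
Fev, chr1:74885409-74885658: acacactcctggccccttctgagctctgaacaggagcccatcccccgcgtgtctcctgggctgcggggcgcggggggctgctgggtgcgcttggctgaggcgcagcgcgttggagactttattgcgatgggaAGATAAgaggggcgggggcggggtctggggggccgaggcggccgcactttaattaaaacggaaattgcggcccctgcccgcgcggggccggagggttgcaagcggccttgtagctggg
Tph1 upstream start, chr7:46672538-46672787: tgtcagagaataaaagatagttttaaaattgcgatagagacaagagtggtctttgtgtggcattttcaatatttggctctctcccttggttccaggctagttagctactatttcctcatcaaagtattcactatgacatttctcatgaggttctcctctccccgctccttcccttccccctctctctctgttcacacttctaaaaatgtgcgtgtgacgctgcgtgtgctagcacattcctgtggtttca
Tph1 downstream start, chr7:46667378-46667627: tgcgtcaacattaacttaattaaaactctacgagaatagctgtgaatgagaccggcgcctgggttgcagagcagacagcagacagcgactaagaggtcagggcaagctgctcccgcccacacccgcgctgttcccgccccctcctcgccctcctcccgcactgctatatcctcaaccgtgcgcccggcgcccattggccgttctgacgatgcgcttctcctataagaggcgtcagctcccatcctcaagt
Tph2, chr10:115185023-115185272: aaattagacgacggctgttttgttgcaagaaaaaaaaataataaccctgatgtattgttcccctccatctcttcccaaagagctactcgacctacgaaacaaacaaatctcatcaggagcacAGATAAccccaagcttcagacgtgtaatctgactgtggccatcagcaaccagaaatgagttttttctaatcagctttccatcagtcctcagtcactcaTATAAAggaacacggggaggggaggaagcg

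The letters of 5 known motifs were searched on both strands in the windows of all 7 entries. AGATAA occurred in the windows of Fev (118 bases before the start), Tph2 (128 bases) and Slc18a2 (230 bases), and in 9.99% of all 32851 RefSeq windows of this length. TATAAA occurred for Tph2 (30 bases before the start) and for 1 of the 2 Ddc starts (68 bases), and in 12.4% of all windows. The ETS motif GGAAGT (19.7% of all windows), the STAT site TTCNNNGAA (7.02%) and the E-box CAGATG (14.4%) were in none of the 7. Only these exact letters were searched, so other forms of ETS, GATA, STAT or E-box sites were not counted. The TATAAA and AGATAA matches did not overlap. The Fev window was 68.0% G and C, against 43.6% in the Tph2 window and the upstream Tph1 window.

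The 6 genes differed by nearly 2 orders of magnitude in how often they were seen. Fev gave 14456 transcripts in 1944 cells and Ddc 10366 in 2186 cells. Slc18a1 gave 1174 transcripts in 753 cells, Slc18a2 504 in 262, Tph1 328 in 121 and Tph2 207 in 159. The highest count in 1 cell was 93 for Fev, 75 for Ddc, 29 for Slc18a2, 18 for Tph1, 9 for Slc18a1 and 6 for Tph2. Tph1 was concentrated in few cells: its top 10 cells held 39.3% of its transcripts, against 5.56% for Fev.

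Endocrine cells held 99.6% of the Fev transcripts (258 CPM, against 2.27 CPM in other cells), a division that the gating fixes. They held 98.0% of the Slc18a1 transcripts (20.6 against 0.864 CPM) and 90.9% of the Tph1 transcripts (5.34 against 1.08 CPM). Tph2 was found in endocrine cells (159 cells) and in 0 of the 1541 other cells, which allows up to 0.195% of them to hold a captured transcript and sets no limit on cells that express the gene. Ddc was shared more widely, with 137 CPM in endocrine cells and 97.2 CPM in others. Slc18a2 stood at 5.07 CPM in endocrine cells and 7.95 CPM in others. Median depths were 18668 transcripts in endocrine cells and 15115 in others.

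**Figure D1:**
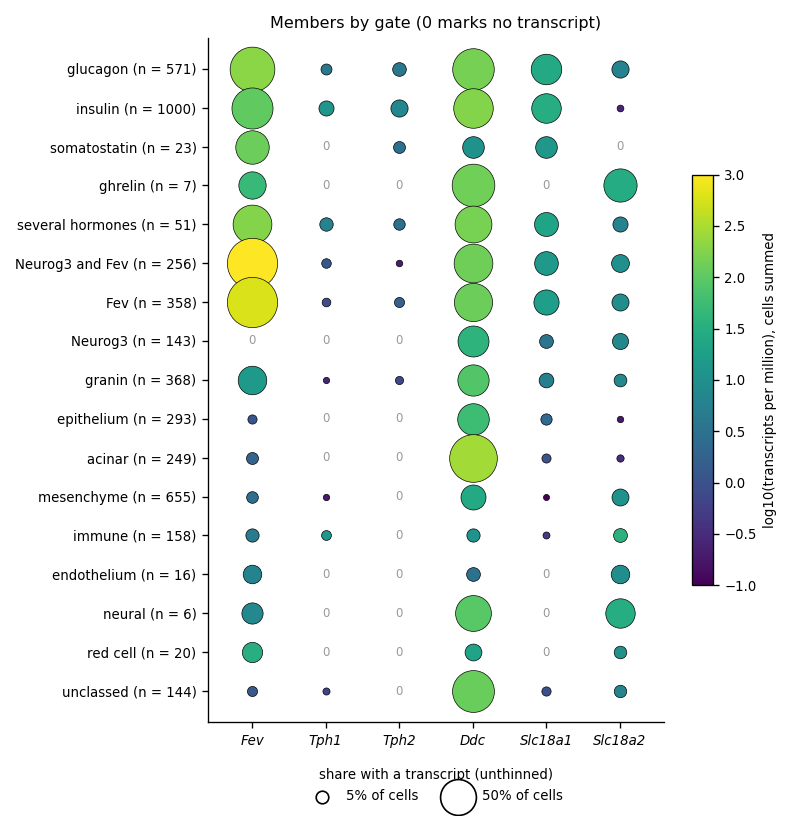
Levels of the 6 genes by gate: colour gives log10 CPM of summed cells and circle area the share of cells with a transcript, without thinning for depth. Fev is high in the hormone, Fev and mixed gates, Ddc extends to acinar cells, and Slc18a2 is nearly missing from insulin-gated cells.

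Fev was highest in cells that also carried Neurog3 and lower in each hormone gate. Cells with both Neurog3 and Fev averaged 1086 ± 214 CPM (SD over 3 experiments) and Fev-gated cells 543 ± 169 CPM (n = 4). Both gates required Fev, so its presence there follows from the rule. The order of the mixed gate above the Fev gate does not, since the mixed gate also took cells with 1 Fev transcript. The hormone gates also took cells without Fev, 339 in the insulin gate and 122 in the glucagon gate. Their lower levels beside the Fev and mixed gates are therefore partly fixed by the rule. Glucagon-gated cells averaged 191 ± 54.6 CPM (n = 7) and insulin-gated cells 137 ± 42.2 CPM (n = 5), and these ranges overlapped. Somatostatin-gated cells, 23 in all, held 126 CPM, and 7 ghrelin-gated cells held 50.4 CPM. In the gates filled after the Fev gates, where a cell could hold at most 1 Fev transcript, experiments averaged 2.40 ± 2.53 CPM in immune cells (n = 5), 2.32 ± 1.80 CPM in mesenchyme (n = 6), 1.33 ± 2.22 CPM in epithelium (n = 7) and 1.22 ± 1.38 CPM in acinar cells (n = 6).

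Fev-rich endocrine cells had little hormone. The 251 cells with 15 or more Fev transcripts had a median total hormone share of 0.121%, and 54.2% of them had a Neurog3 transcript. Among the 526 cells with 5 to 14 Fev transcripts the median hormone share was 1.95% and 20.7% had Neurog3. In the 617 cells with 2 to 4 it was 3.90% and 13.0%. The 896 cells with 0 Fev transcripts had a median hormone share of 2.80% and were shallower, at a median of 15108 transcripts. Ddc stood at 194 CPM in the richest class, 135 to 142 CPM in the classes between and 114 CPM in cells without Fev. Of the cells without Fev, 143 were Neurog3-gated and 253 granin-gated.

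Within the insulin gate Fev was lower where insulin was higher. The 279 cells with 1 to 5% insulin held 167.5 CPM of Fev, the 368 cells with 5 to 15% held 98.4 CPM and the 353 cells above 15% held 52.8 CPM. With the hormone transcripts left out of the total, these were 173, 109 and 68.5 CPM. Of these cells 40, 226 and 339 were from E18.5, so insulin share and stage moved together here, and their parts were not separated. In glucagon-gated cells Fev stood at 193 CPM in 377 cells with 1 to 5% glucagon and 224.5 CPM in 193 cells with 5 to 15%.

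The gates that held Fev-positive cells differed between stages. At E12.5, 80.8% of 343 Fev-positive cells were glucagon-gated and 0 were insulin-gated. Insulin-gated cells made up 12.4% of the 355 Fev-positive cells of E13.5, 15.4% of the 389 of E14.5, 42.8% of the 460 of E15.5 and 90.7% of the 397 of E18.5. The Fev gate itself held 137 Fev-positive cells at E13.5 and 7 at E18.5. These shares also follow which cells were sorted and how many of each type each plate held.

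**Figure D2:**
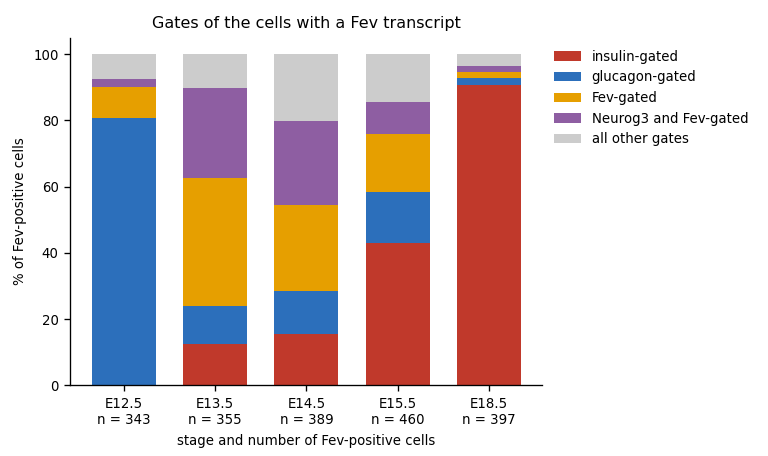
Share of Fev-positive cells in each gate by stage, with the number of Fev-positive cells below each bar. Glucagon-gated cells take 80.8% at E12.5 and insulin-gated cells 90.7% at E18.5, with Fev-gated and mixed Neurog3 and Fev cells largest at E13.5 and E14.5.

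Most Tph1 transcripts, 222 of 328, lay in insulin-gated cells of E18.5. In insulin-gated cells EP12 (E13.5) held 0.984 CPM, EP14 (E14.5) 1.03 CPM, EP10 and EP17 (E15.5) 0.557 and 1.55 CPM, and EP16 (E18.5) 20.6 CPM. EP16 stood above the other 4, each of which rests on 1 or 2 transcripts. All 3 plates of EP16 were high, with 23.1 CPM on the MIP-GFP plate, 14.3 CPM on the live plate and 19.2 CPM on the plate coded P6, the last 2 titled E18.5 as well. At E18.5, 72 of 605 insulin-gated cells had a Tph1 transcript, against 6 of the 395 earlier ones, whose median depth was higher, at 19244 against 16342 transcripts. Tph1 did not pass the filter on low counts in the fit of a slope over stages. Without the filter edgeR gave a slope of 1.30 ± 0.159 log2 units per day (SE, adjusted p = 3.99e-05), which rests on EP16.

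Even at E18.5 most insulin-gated cells had no Tph1. In 533 of 605 none was seen, 41 had 1 transcript, and 13 cells with 5 or more held 60.8% of the transcripts, up to 18 in a cell. These 13 cells came from the MIP-GFP plate (6) and the plate coded P6 (7). Their median depth was 30207 transcripts, against 15816 in cells without Tph1. Prlr, the prolactin receptor, stood at 277 CPM in cells without Tph1, 461 CPM with 1 Tph1 transcript, 701 CPM with 2 to 4, 921 CPM with 5 to 9 and 1218 CPM with 10 or more. Chgb, a granin of secretory granules, ran from 3374 CPM to 7342 CPM over the same classes, as did Ins1, from 57840 CPM to 89120 CPM. Ins2 stood at 105800 and 105900 CPM at the ends of the range and at 89350 to 124400 CPM between them. Mki67, a proliferation marker, stood at 33.7 CPM in cells without Tph1 and 192 CPM in the 6 cells with 10 or more. Fev stood at 87.2 CPM in cells without Tph1, 50.5 CPM with 1 Tph1 transcript and 66.8 CPM with 2 to 4. It was 42.7 CPM with 5 to 9 and 23.4 CPM with 10 or more. A Fev transcript was in 59.85% of cells without Tph1 and 46.15% of the 13 cells with 5 or more. These values describe cells of 1 experiment, and the classes with more Tph1 were also deeper.

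A second, smaller Tph1 signal lay in glucagon-gated cells at E12.5. These held 5.91 CPM in EP11 (44 transcripts in 16 of 262 cells) and 3.82 CPM in EP18 (5 transcripts in 2 of 110 cells). The 4 experiments at E13.5 to E15.5 held between 0 and 0.787 CPM, with 1 transcript in all, and EP16 held 3.89 CPM from 1 transcript in 15 cells. All 49 E12.5 transcripts were on the MIP-GFP plates, whose titles give E15.5. The 17 glucagon-gated cells of the live E12.5 plates gave 0, where up to 16.9 CPM (EP11) and 33.2 CPM (EP18) would have been missed. The slope over stages in glucagon-gated cells, again without the filter, was −0.64 ± 0.339 (adjusted p = 0.326, edgeR), and was not called. Neurog3-gated, epithelial and acinar cells gave 0 Tph1 transcripts, with limits of 1.07, 0.541 and 0.503 CPM.

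A further source of Tph1 was immune-gated cells with mast cell genes. Of 158 immune-gated cells, 8 carried the mast list (Kit, Cpa3, Cma1, Mcpt4, Tpsb2, Fcer1a, Ms4a2, Hdc) at 16.9 to 157 transcripts per 1000, and 5 of the 8 were from EP16. Those 8 held all 26 Tph1 transcripts of the immune gate, in 4 cells, with 13 in 1 cell. The other 150 immune cells gave 0 Tph1 transcripts. In insulin-gated cells the mast list summed to 27.1 CPM, of which 22.6 were Kit, and 1 of its 8 genes was at 0.

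Tph2, the neuronal form, was seen at low level in insulin-gated and glucagon-gated cells, and in 0 of the 158 immune-gated cells. In insulin-gated cells EP12 (E13.5) held 2.95 CPM, EP14 (E14.5) 5.17, EP10 and EP17 (E15.5) 3.62 and 5.43, and EP16 (E18.5) 9.39. Glucagon-gated cells ranged from 0.678 to 6.04 CPM (median 3.89, n = 7), overlapping the insulin range. Among Neurog3-gated cells 0 of 143 had a Tph2 transcript, which allows up to 2.10% with a captured one, and Fev-gated cells 10 of 358. At E18.5 Tph2 was in 34.7% of the 72 insulin-gated cells with Tph1 and 9.94% of the 533 without it, at median depths of 23946 and 15816 transcripts. Both hydroxylases were in the same cell in 26 cells, 25 of them insulin-gated.

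Ddc, which also serves dopamine synthesis, was highest outside the endocrine lineage. Acinar cells averaged 262 ± 85.7 CPM (n = 6), with a range from 150 to 358. Insulin-gated cells averaged 104 ± 88.4 CPM (n = 5), Fev-gated cells 130.0 ± 19.4 CPM (n = 4), glucagon-gated cells 113 ± 40.3 CPM (n = 7), Neurog3-gated cells 38.7 ± 13.4 CPM (n = 4) and mesenchyme 25.4 ± 9.57 CPM (n = 6). After thinning each cell to 2000 transcripts, Ddc was seen in 41.0% of acinar cells (95% Wilson interval 35.0 to 47.2%), 25.3% of insulin-gated cells (22.7 to 28.1%) and 18.4% of glucagon-gated cells (15.4 to 21.8%). In mesenchyme the share was 4.27%. Intervals cover counting error only. The insulin mean was carried by E18.5, at 255 CPM, with 37.7 to 92.9 CPM in the earlier experiments.

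Of the vesicular transporters, Slc18a2 was scarce in insulin-gated cells, while Slc18a1 was found in both hormone gates with overlapping ranges. Slc18a1 stood in insulin-gated cells at 31.2 ± 5.09 CPM (n = 5, range 24.8 to 37.7) and in glucagon-gated cells at 20.8 ± 8.24 CPM (n = 7, range 11.7 to 34.3). Slc18a2 stood in insulin-gated cells at 0.351 ± 0.301 CPM (n = 5), 5 transcripts in 1000 cells. In glucagon-gated cells Slc18a2 averaged 4.65 ± 2.73 CPM (n = 7), 78 transcripts in 571 cells. The highest insulin experiment held 0.775 CPM of Slc18a2, and 6 of the 7 glucagon experiments lay above it, the seventh (EP17, 26 cells) giving 0. Fev-gated cells held 8.26 ± 3.37 CPM and Neurog3-gated cells 6.77 ± 5.79 CPM of Slc18a2 (n = 4 each), near the mesenchyme level of 11.6 ± 8.91 CPM (n = 6). Acinar cells held 0.335 CPM and epithelium 0.1803 CPM.

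Slc18a2-rich cells were mostly not endocrine. Of 13 cells with 5 or more transcripts, 5 were immune-gated, 3 mesenchymal, 2 granin-gated, 2 unclassed and 1 Fev-gated, and 12 of the 13 were live-sorted. The 8 cells with the mast list held 71 of the 73 Slc18a2 transcripts of the immune gate. In a granin-gated cell lay the highest count, 29.

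MIP-GFP cells were compared with live cells to see what the reporter sort enriched. Fev, Tph2 and Slc18a1 were higher in MIP-GFP cells, Ddc and Slc18a2 did not pass the test, and Tph1 did not pass the filter. Of 12986 genes tested, 43.1% were called at an adjusted p of 0.05 (2685 higher and 2908 lower), beside 3 of the 5 members tested. Fewer cells of a type and less RNA per cell cannot be told apart in these sums.

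Fev held 610, 432.5, 244, 190, 183, 102 and 82.2 CPM in the 7 MIP-GFP experiments, against 99.8, 79.0, 67.4, 31.9, 19.7, 14.3 and 8.05 CPM in the live ones, each from high to low. MIP-GFP exceeded live in all 7 experiments, though the ranges overlapped, and the difference was narrowest in EP16 (82.2 against 67.4 CPM). The live cells of EP16 include the plate coded P6, and the other live plate alone held 27.3 CPM. Over all 7 experiments the difference was 2.63 ± 0.375 log2 units (SE, adjusted p = 0.000295, edgeR quasi-likelihood test with Benjamini-Hochberg adjustment). Without the plate coded P6 it was 2.74 (adjusted p = 1.51e-05).

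Slc18a1 held 18.2 to 32.5 CPM in MIP-GFP cells (median 21.4), against 1.34 to 17.6 CPM in live cells (median 2.75). The groups did not overlap. The difference was 2.55 ± 0.351 log2 units (adjusted p = 0.000237, edgeR), and 2.69 without the plate coded P6 (adjusted p = 2.67e-05). Tph2 held 1.67 to 8.71 CPM in MIP-GFP cells (median 2.49), against 0 to 6.39 CPM in live cells (median 0.262), and 3.04 ± 0.747 log2 units separated them (adjusted p = 0.00636, edgeR). In live cells 3 of 7 experiments gave 0 Tph2, and the highest was EP16, where the plate coded P6 supplied most endocrine cells. Without that plate the Tph2 difference was 3.62 (adjusted p = 0.000643).

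Ddc held 67.2 to 214 CPM in MIP-GFP cells, against 75.2 to 256 CPM in live cells, with overlap (−0.36 ± 0.316, adjusted p = 0.383, edgeR). Slc18a2 held 0 to 7.45 CPM in MIP-GFP cells, against 3.33 to 13.1 CPM in live cells (−0.91 ± 0.653, adjusted p = 0.287, edgeR). Tph1 held 0.456 to 21.7 CPM in MIP-GFP cells, against 0 to 15.51 CPM in live cells, and gave 2.36 ± 0.787 without the filter (adjusted p = 0.0296, edgeR). Without the plate coded P6 the differences were −0.14 for Ddc (adjusted p = 0.831, edgeR) and −1.02 for Slc18a2 (adjusted p = 0.285).

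**Figure D3:**
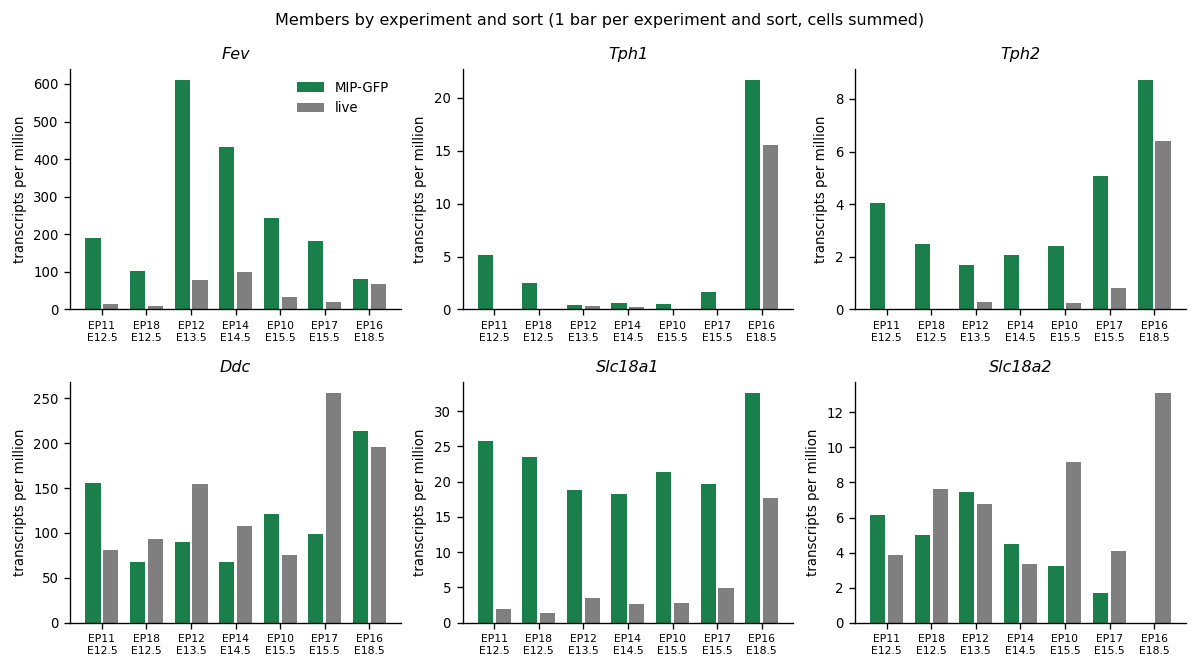
CPM of the 6 genes in summed MIP-GFP (green, left) and live (grey, right) cells of each experiment, in order of labelled stage. Fev and Slc18a1 are higher in MIP-GFP cells of all 7 experiments, and Tph1 stands out in both sorts of EP16.

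The gates were compared to describe the steps from Neurog3 precursors to hormone cells, in 1 fit with the experiment as block. Fev-gated cells had more Ddc and Slc18a1 than Neurog3-gated cells, the only 2 of the 5 genes outside the gate rule that passed the filter, with 40.2% of 11128 genes called. Ddc held 108 to 152 CPM in 4 Fev-gated sums, against 22.5 to 55.3 CPM in 4 Neurog3-gated sums, without overlap (1.71 log2 units, adjusted p = 0.00138, edgeR). Slc18a1 held 12.4 to 21.9 CPM, against 1.32 to 6.92 CPM, again without overlap (2.14, adjusted p = 0.000159, edgeR). Fev-gated cells gave 6 Tph1 and 13 Tph2 transcripts in 358 cells, and Neurog3-gated cells gave 0 of each in 143. Without the filter the Tph2 difference was called (adjusted p = 0.0317, edgeR) and the Tph1 difference was not (adjusted p = 0.101). With 0 in 1 group, these fits give no size. Immune markers summed to 735 CPM in Fev-gated cells and 228 CPM in Neurog3-gated cells, and 7 acinar markers to 769 and 1436 CPM; their part in the result was not tested.

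Between glucagon-gated and Fev-gated cells neither gene passed the test, with 12.4% of genes called. Ddc gave −0.32 ± 0.287 (adjusted p = 0.518) and Slc18a1 0.37 log2 units. Between insulin-gated and Fev-gated cells, where 21.5% of genes were called, Slc18a1 was higher in insulin-gated cells by 1.35 log2 units (adjusted p = 0.000229, edgeR). Its ranges, given above, did not overlap, at 24.8 to 37.7 CPM in insulin-gated and 12.4 to 21.9 CPM in Fev-gated cells. Ddc gave −0.61 ± 0.325 (adjusted p = 0.205) and was called lower without EP16 (−0.84, adjusted p = 0.0325) and without the MIP-GFP plates whose titles conflict (−0.92, adjusted p = 0.0109). Slc18a2 failed the filter, and without the filter it was lower in insulin-gated cells by −3.93 ± 0.751 log2 units (adjusted p = 5.89e-05, edgeR).

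Between the hormone gates 26.4% of genes were called. Glucagon-gated cells had more Fev, by 0.42 ± 0.122 log2 units (adjusted p = 0.0171, edgeR), with 113 to 275 CPM in glucagon-gated and 81.3 to 197 CPM in insulin-gated sums. The Fev call was lost without EP10 (0.40, adjusted p = 0.0826), without EP14 (0.32, adjusted p = 0.124), without the block (0.36, adjusted p = 0.250) and with the hormone gate at 0.5% (0.18, adjusted p = 0.304). Slc18a1 was lower in glucagon-gated cells, by −0.98 log2 units (adjusted p = 0.00152, edgeR), and that call was lost without the block (−0.62, adjusted p = 0.0810). Ddc gave 0.29 ± 0.296 (adjusted p = 0.522). In the fit without a filter Slc18a2 was higher in glucagon-gated cells by 3.36 ± 0.773 (adjusted p = 0.000709, edgeR), and neither Tph1 (adjusted p = 0.209) nor Tph2 (adjusted p = 0.254) was called.

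A slope per day was fitted in each hormone gate to follow the genes through development. In insulin-gated cells, E13.5 to E18.5, the level of Ddc rose with a slope of 0.63 ± 0.0709 log2 units a day (SE, adjusted p = 0.00182, edgeR), where 5.43% of 10446 genes were called. Its levels were 42.3 CPM in EP12 (E13.5), 37.7 in EP14 (E14.5), 92.9 and 91.5 in EP10 and EP17 (E15.5) and 255 in EP16 (E18.5), which stood above all others. The plates of EP16 held 219 CPM (MIP-GFP), 140.1 CPM (live) and 288 CPM (coded P6). Without the plate coded P6 the Ddc slope was 0.55 (adjusted p = 0.0054, edgeR). Without EP16 the Ddc slope was 0.76 but not called (adjusted p = 0.507), and with the stage from the titles it was 0.44 (adjusted p = 0.870). Fev gave −0.18 ± 0.0553 (adjusted p = 0.108), with 197, 148, 120 and 141, and 81.3 CPM over the same stages, and was called lower without EP17 (−0.18, adjusted p = 0.0325), in the authors' kept wells (−0.23, adjusted p = 0.0419) and with the hormone gate at 0.5% (−0.24, adjusted p = 0.0415). Tph2 gave 0.36 (adjusted p = 0.118), and Slc18a1 lay within 0.01 of 0 at 24.8 to 37.7 CPM.

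In glucagon-gated cells, E12.5 to E18.5, none of Fev, Ddc and Slc18a1 had a called slope, where 2.59% of 10553 genes did. Slc18a1 held 28.9 and 34.3 CPM in EP11 and EP18 (E12.5), 11.7 CPM in EP16 (E18.5), and values between these in the other 4 (−0.25, adjusted p = 0.167, edgeR). Fev held 198 and 146 CPM in EP11 and EP18 (E12.5), 239.5 in EP12 (E13.5), 275 in EP14 (E14.5), 192 and 175 in EP10 and EP17 (E15.5) and 113 in EP16 (E18.5), highest in the middle stages. The Ddc slope was −0.03 ± 0.0907. The slope of Ddc was steeper in insulin-gated than in glucagon-gated cells by 0.51 ± 0.0744 log2 units per day (adjusted p = 0.00052, edgeR), a test added after the data were seen, in which 0.753% of 9957 genes were called. It was 0.47 without the plate coded P6 (adjusted p = 0.00297). It was not called without EP16 (0.37, adjusted p = 0.810) or without the MIP-GFP plates whose titles conflict (0.36, adjusted p = 0.788).

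**Figure D4:**
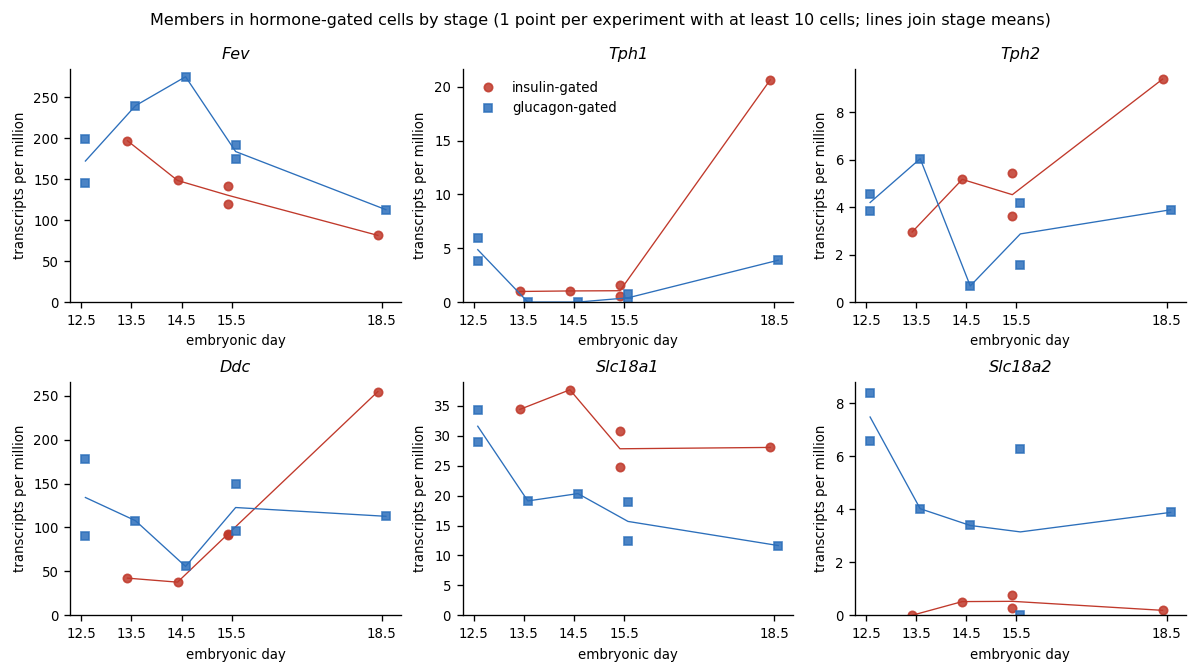
CPM of the 6 genes in insulin-gated (red circles) and glucagon-gated (blue squares) cells by embryonic day, 1 point per experiment with at least 10 cells, lines through stage means. Tph1 and Ddc are highest in insulin-gated cells at E18.5 (20.6 and 255 CPM), and Slc18a2 stays below 0.78 CPM in that gate.

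Co-detection in the same cell was compared between Fev-positive and Fev-negative endocrine cells of each experiment. Gating by Fev shaped these groups: of the 896 endocrine cells with 0 Fev transcripts 143 were Neurog3-gated and 253 granin-gated, gates low in Slc18a1 (3.57 and 5.07 CPM), and cells with 2 or more Fev entered the endocrine set by Fev itself. The hormone gates do not use Fev, and values within them are given below. When each cell was thinned to 2000 transcripts, none of the 5 partners passed the test. Ddc was in 48.0, 22.5, 19.4, 19.3, 15.6, 14.8 and 14.8% of Fev-positive cells, each experiment with its own Fev-negative share of 29.1, 17.6, 21.5, 13.3, 13.7, 12.8 and 11.04%. It was higher in 6 of 7 experiments, with means of 22.0 ± 11.8% in Fev-positive and 17.0 ± 6.401% in Fev-negative cells (exact two-sided sign-flip test, p = 0.0625, adjusted p = 0.312 over 5 partners). Slc18a1 was in 5.33 ± 3.09% and 4.31 ± 2.21% (higher in 4 of 7, adjusted p = 0.703, exact test). Tph1 was in 1.11 ± 1.73% and 0.643 ± 0.914% (adjusted p = 0.625, exact test). Tph2 was in 0.297 ± 0.507% and 0.721 ± 0.604% (adjusted p = 0.547, exact test), and Slc18a2 in 0.900 ± 1.34% and 0.869 ± 0.712% (adjusted p = 0.969, exact test).

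Without thinning the result differed. Ddc was in 58.2 ± 14.7% of Fev-positive and 45.5 ± 13.3% of Fev-negative cells, and Slc18a1 in 29.8 ± 8.92% and 15.2 ± 9.53%. Both were higher in 7 of 7 experiments, with an exact p of 0.0156, the smallest 7 experiments allow, and an adjusted p of 0.0391. Depth also differed with Fev. Endocrine cells with 0 Fev transcripts had a median of 15108 transcripts. The median was 16566 with 1 Fev transcript, 21040 with 2 to 4, 23010 with 5 to 14 and 20483 with 15 or more. The part of depth in the result was not tested. In hormone-gated cells alone neither Ddc nor Slc18a1 was called. Unthinned, a setting added after the data were seen, Slc18a1 was in 34.3 ± 10.5% of Fev-positive and 23.0 ± 10.01% of Fev-negative cells. It was higher in 6 of 6 experiments, with an exact p of 0.03125, the smallest 6 experiments allow (adjusted p = 0.156). With 6 or 7 experiments no partner can be called alone after the adjustment. With 6, Ddc and Slc18a1 could not be called even together, since further partners would also have to reach the smallest p. The missing call in this setting therefore cannot be set against the calls from 7 experiments. Ddc in that setting was in 60.0 ± 15.8% and 50.9 ± 20.9% (higher in 5 of 6, adjusted p = 0.156, exact test). Thinned to 2000 transcripts, Slc18a1 was in 4.53 ± 3.44% and 5.197 ± 3.03% (higher in 3 of 7, adjusted p = 0.703, exact test), and Ddc in 19.2 ± 14.8% and 17.0 ± 8.12% (higher in 3 of 7, adjusted p = 0.703, exact test). Thinned to 10000 transcripts, an alternative added after the data were seen, Slc18a1 was in 19.8 ± 3.61% and 15.04 ± 8.40% (higher in 6 of 7, adjusted p = 0.391, exact test).

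**Figure D5:**
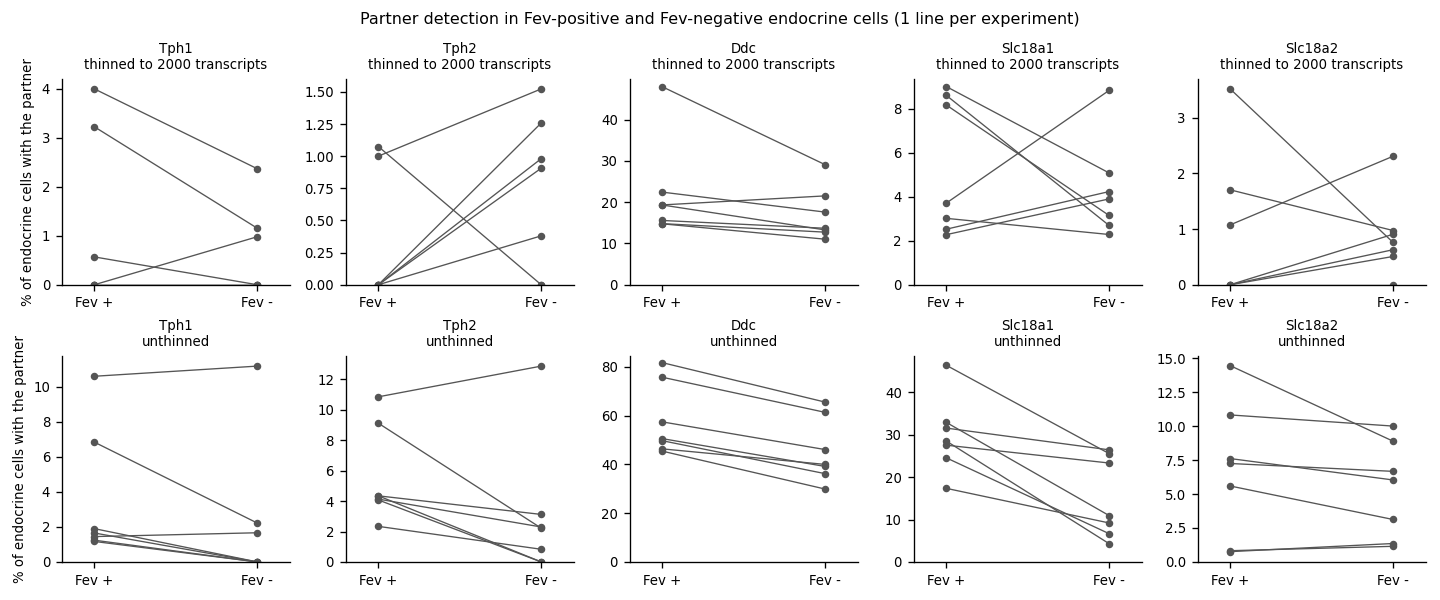
Share of Fev-positive (left) and Fev-negative (right) endocrine cells with each partner, 1 line per experiment, after thinning to 2000 transcripts (top) and without thinning (bottom). All 7 lines for Ddc and Slc18a1 fall to the right without thinning, and 6 and 4 of them do after it.

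Cells with the whole set of steps were few. A hydroxylase, Ddc and a vesicular transporter were detected together in 93 of 4318 cells, 91 of them endocrine, with 55 insulin-gated and 23 glucagon-gated. In 64 of the 93 Fev was present too, while 67.7% of all endocrine cells had a Fev transcript. Among the 254 cells with a hydroxylase transcript, 189 had Ddc. For comparison, Ddc was in 56.9% of all endocrine cells and in 445 of the 605 insulin-gated cells of E18.5. Whether the counts exceed those shares was not tested. All 6 genes were seen in 1 cell, an insulin-gated one, 5 in 12 cells and none in 1215. Both transporters were seen together in 53 cells, 28 glucagon-gated and 3 insulin-gated. Missing transcripts at this depth do not show that a cell lacks a gene.

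A list of 39 pathway genes was read beside the members, 38 of them in the table. In Fev-gated against Neurog3-gated cells 7 of the 17 that passed the filter were higher and 3 lower, against 40.2% of all genes called. Gch1, which starts synthesis of the tetrahydrobiopterin cofactor of tryptophan and tyrosine hydroxylases, held 346 to 498 CPM in Fev-gated sums, against 15.53 to 32.3 CPM in Neurog3-gated sums (3.88 log2 units, edgeR), without overlap. It stayed at 222 to 372 CPM in glucagon-gated and 223 to 288 CPM in insulin-gated sums and was at most 4.16 CPM in mesenchyme. Th, tyrosine hydroxylase of dopamine synthesis, held 34.0 to 187 CPM in Fev-gated sums, against 1.63 to 6.92 CPM in Neurog3-gated sums (3.74). Maob, which breaks down monoamines, held 45.0 to 125 CPM, against 1.32 to 12.7 CPM (4.19). Among the other cofactor genes Pts, Qdpr and Pcbd1 were higher and Spr lower.

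Maob, Th and Prlr were higher in insulin-gated than in Fev-gated cells and lower in glucagon-gated than in insulin-gated cells, in 2 comparisons that share the insulin-gated sums. Maob held 55.1 to 121 CPM in glucagon-gated sums, against 247 to 328 CPM in insulin-gated sums, without overlap. Between glucagon-gated and Fev-gated cells 1 of 17 pathway genes, Pcbd1, was called higher, against 12.4% of all genes. Over all cells summed Th ran the other way, at 112 CPM in glucagon-gated and 53.3 CPM in insulin-gated cells. Over days, Th fell in both gates (−0.40 log2 units a day in insulin-gated and −0.83 in glucagon-gated cells), and Prlr rose in insulin-gated cells (1.44), with 2.95 CPM in the lowest and 341 CPM in the highest experiment. Without EP16 the insulin-gated slopes were −0.39 for Th (adjusted p = 0.678, edgeR) and 1.38 for Prlr (adjusted p = 0.441), and neither was called. Without the plate coded P6 they were −0.46 (adjusted p = 0.00236, edgeR) and 1.47 (adjusted p = 1.44e-05). In MIP-GFP against live cells 11 of 21 were higher and 6 lower, Gch1 among the higher (2.54, adjusted p = 0.000204, edgeR).

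The neuronal regulators of this programme were scarce. Gata3 and Lmx1a gave 0 transcripts in both insulin-gated and glucagon-gated cells, Gata2 stood at 0.161 CPM in insulin-gated cells, and Lmx1b at 0.376 CPM. Gata2 held 153 CPM in the immune gate. Nkx2-2, a regulator shared by islets and serotonin neurons, stood at 284 CPM in insulin-gated, 332 CPM in Fev-gated and 490 CPM in Neurog3-gated cells. Of the serotonin receptors in the table none passed a filter, the most abundant being Htr7 with 44 transcripts and Htr2b with 34, and Htr2b stood at 1.61 CPM in insulin-gated cells.

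Genes with profiles most like Fev were named over 58 sums of experiment and gate by Pearson r of log2(CPM + 1), among 10190 genes with a mean of at least 10 CPM. They were Elmod1 (0.93), Sphkap (0.928), Ocrl (0.913), Usp18 (0.908), Prps1 (0.904) and AI836003 (0.904). For Ddc they were Ttc39a (0.742), Pla1a (0.734) and Ppp4r4 (0.727), and for Slc18a2 Basp1 (0.669), Gsdmd (0.649) and Prss34 (0.642). Tph1, Tph2 and Slc18a1 were below 10 CPM on average and were not ranked. Fev helped to define several of these gates, so its level over the sums was partly fixed by the gate rule. The sums also share plates and depth, so these values are descriptions.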

How the data were processed

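The deposited table holds expected counts: transcripts per gene and well that the authors estimated from molecular identifiers, not scaled for depth. Per the submitters' processing notes reads were aligned with BWA to mm10 and Seurat was used, without versions. Of its columns, 5760 wells match labelled plates by name; the other 1536 match none and were left out. Libraries of a plate share wells under 1 name, so the replicate was the experiment (EP number in the titles). No label says that embryos differed within an experiment, so p-values measure the spread between experiments, which may be technical.

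Stage was taken from the developmental stage label. Counts were rounded and summed per experiment and group (at least 10 cells), and tested across all genes with edgeR 4.0.16 (R 4.3.3): quasi-likelihood test, TMM scaling, filterByExpr, Benjamini-Hochberg adjustment at 0.05. MIP-GFP against live had stage as covariate, gate comparisons the experiment as block, and slopes the day as a number. Where no experiments share a stage, spread is taken from the fitted line. DESeq2 1.42.0, other scalings and filters, other cells and leaving out each experiment were run as alternatives. The same EP number marks both sorts of 1 experiment: differences between the paired experiments correlated between sorts at 0.45 (E12.5) and 0.323 (E15.5).

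Each cell was thinned to 2000 transcripts for shares (scipy 1.17.1, numpy 2.4.6) and co-detection was tested by exact sign flips over experiments. The tests were tested on simulated data. Doublets were not removed: 8 cells deeper than 5 times the median of their plate stayed in, and no doublet caller was run on wells filled by single-cell sorting. Places are from GENCODE vM21, whose build is the one the notes name, and upstream sequences from RefSeq, GRCm38.p6. All 6 members are named throughout, and pathway genes where called or extreme in their role, of which some are not reported here. The members, the gene lists and the tests were chosen with earlier results of these data known. Motifs were chosen after the values were seen.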

Additional observations from a re-analysis of the deposited data

Results flagged for a closer look

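Of 42 sets of experiments in which the level of a gene was looked at by gate or sort, 11 held an experiment far from the rest. Chance gives about 1 in 20 for normally distributed values. That rate does not hold where the other experiments are at or near 0, since a single transcript then stands apart. The sets share experiments and cells. Those of EP16, the E18.5 experiment, were Tph1 in insulin-gated cells (20.6 CPM, the others 0.557 to 1.55), Ddc in insulin-gated cells (255 CPM, the others 37.7 to 92.9), Tph1 in MIP-GFP cells (21.7 CPM, the others 0.456 to 5.195) and Tph1 in live cells (15.51 CPM, the others 0 to 0.3004). In live cells of EP16, Slc18a1 (17.6 CPM, the others 1.34 to 4.93) and Tph2 (6.39 CPM, the others 0 to 0.822) also stood apart. The live cells of EP16 include the plate coded P6, of which 96.7% were insulin-gated; the other live plate of EP16 alone held 9.93 CPM of Tph1, 8.27 of Slc18a1 and 1.38 of Tph2. Of the 36 Tph1 transcripts of that plate, 25 lay in immune-gated cells with the mast list and 5 in insulin-gated cells. EP16 is the only experiment at E18.5, so stage and experiment cannot be told apart.

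EP11 stood apart in Fev-gated cells for Tph1 (3.22 CPM from 2 transcripts, the others 0.413 to 0.829) and Tph2 (4.82 CPM from 3 transcripts, the others 1.31 to 1.66). Others rest on 1 or 2 transcripts: Slc18a2 in acinar cells of EP11 (2.06 CPM, the others 0 to 0.528), Tph1 in mesenchyme of EP16 (1.39 CPM, the others 0) and Slc18a1 in mesenchyme of EP14 (0.498 CPM, the others 0).

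The Ddc slope per day differed between insulin-gated and glucagon-gated cells by 0.51 log2 units, by a test of the difference itself.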

How the results depend on the processing

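Alternatives that changed the call of a member are given beside the results. In MIP-GFP against live cells, Fev ranged from 1.50 (authors' kept wells) to 2.93 log2 units and Slc18a1 from 1.71 to 2.83, called throughout; Tph2 could not be tested in the authors' kept wells. With the experiment as replicate block in place of stage, Fev was 2.62 (adjusted p = 0.000696, edgeR). Without the replicate block in the gate fit, 2975 genes were called between Fev-gated and Neurog3-gated cells, 387 between glucagon-gated and Fev-gated cells and 1511 between insulin-gated and Fev-gated cells. Leaving out each experiment gave 494 to 1902 called genes for glucagon-gated against Fev-gated cells, the fewest without EP14, and 1256 to 2737 for insulin-gated against Fev-gated cells.

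Slopes depended most on the processing. In insulin-gated cells 567 genes were called, 1010 without the filter, 0 with the stage from the titles (edgeR, with 429 genes below 0.05 before adjustment, unadjusted p), and 1 (without EP16) to 1112 (without EP17) when leaving out an experiment. In glucagon-gated cells 273 were called, 983 without the filter, 493 with DESeq2, 0 with the stage from the titles (edgeR, unadjusted p below 0.05 for 352 genes), 6 without plates whose titles conflict, and 78 (without EP16) to 305 leaving out an experiment. DESeq2 was not run with the stage from the titles. For the difference of slopes 75 were called, 127 without the filter, 24 with DESeq2, 48 in the authors' kept wells, 14 without plates whose titles conflict, and 13 (without EP16) to 110 leaving out an experiment.

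Co-detection with Fev was called for Ddc (12.7 percentage points) and Slc18a1 (14.6) unthinned, and with at least 2 transcripts required (14.9 and 5.38), and in no other alternative, hormone-gated cells unthinned included. With 6 or 7 experiments no partner could be called alone after the adjustment. With 6, as in hormone-gated cells unthinned or with an experiment left out, Ddc and Slc18a1 could not be called even together. A missing call there decides nothing. The threshold of 2 transcripts was applied to unthinned counts, and the blocked form of a slope could not be fitted with 1 sum per experiment. The cause of these changes was not tested. Shares of hormone-gated cells with a transcript moved with depth, for Fev in insulin-gated cells 18.1% of 1000 cells thinned to 2000 transcripts, 55.3% of the 767 cells deep enough for 10000, and 66.1% of 1000 unthinned. Thinned shares of Tph1, Tph2 and Slc18a2 rest on few cells, which limits what these depths can show.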

Other observations

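Slc6a4, the plasma membrane serotonin transporter, was seen outside the endocrine lineage. Acinar cells held 6.37 to 43.8 CPM over 6 experiments (median 15.7), against 0 to 0.557 CPM in insulin-gated cells of 5 experiments. Immune-gated cells held 0 in the median experiment and 367 CPM in the highest. Slc6a4 was lower in MIP-GFP than in live cells by −5.21 log2 units (adjusted p = 0.000211, edgeR).

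Hdc, which makes histamine, stood at 479 CPM in the immune gate, 13.3 CPM in glucagon-gated and 2.64 CPM in insulin-gated cells. The 8 cells with the mast list held 878 of its transcripts. Aldh2 stood at 288 CPM in the immune gate, 34.7 CPM in glucagon-gated and 48.9 CPM in insulin-gated cells.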
